A study of Mus musculus with 4 samples.

Results

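Saa3, Saa1, Saa2, Hp, Lcn2, Orm1, Ptx3 and Itih4, genes of acute-phase proteins and of the siderocalin family, were followed across cell lineages in lung and synovium of mice with and without a human TNF transgene. These 8 genes were picked out of the 32285 in the matrices by symbol, and were selected on their UMIs by cell lineage in earlier results of the same 4 libraries. Their levels are therefore described here and not tested. TNF+ mice (hTNFtg) carry 1 copy of human TNF and develop arthritis and lung disease, and TNF- mice are littermates without the transgene, so the transgene is the only labelled difference between groups. All animals were female C57BL/6 mice aged 4 months. Tissue from 3 to 5 mice (lung) or 5 to 10 mice (synovium) was pooled by genotype and sorted for viable cells before droplet capture, which left 4 libraries, 1 for each genotype and tissue, and no replicates. Every interval below is a 95% interval for counting error only, and the spread between mice was not measured.

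Acute-phase proteins are secreted in large amounts when IL-6, IL-1 and TNF signal through STAT3, NF-kB and C/EBP factors, mainly by the liver, although several are also made locally in inflamed tissue. Serum amyloid A proteins (Saa1, Saa2 and Saa3) associate with lipoproteins and attract leukocytes, and Saa3 is the form made mostly outside the liver in mice. Haptoglobin (Hp) captures free haemoglobin, orosomucoid (Orm1) binds small lipophilic molecules, and the siderocalin lipocalin 2 (Lcn2) withholds iron from bacteria by binding their siderophores. The long pentraxin Ptx3 marks microbes for phagocytes and helps to stabilise hyaluronan matrix, and Itih4 belongs to the inter-alpha-trypsin inhibitor family, whose heavy chains bind hyaluronan.

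In GENCODE vM21 on build GRCm38, Saa3 (chr7:46711998-46715700, minus strand), Saa1 (chr7:46740497-46742980, minus strand) and Saa2 (chr7:46751790-46754313, plus strand) lay within 42316 bases of each other. Hp was at chr8:109575128-109579172 on the minus strand, Lcn2 at chr2:32384633-32388252 on the minus strand, Orm1 at chr4:63344560-63348163 on the plus strand, Ptx3 at chr3:66219910-66225805 on the plus strand and Itih4 at chr14:30886476-30902353 on the plus strand. Ptx3 overlapped Veph1, which is transcribed from the opposite strand, and none of the other 7 loci overlapped an annotated gene. The first listed transcripts of Saa1 and Saa2 were identical at 572 of 609 aligned bases (93.9%), against 64.6% for Saa1 and Saa3 and 63.8% for Saa2 and Saa3. Counts of Saa1 and Saa2 are for this reason uncertain, since reads that match both copies cannot be placed, whereas Saa3 was distinct from both.

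The promoters of the 3 serum amyloid A genes, which are neighbours and relatives, and of Lcn2 are printed. A link between promoter letters and levels was not tested. The RefSeq table (GRCm38.p6) held promoters for 6 of the 8 genes, and Hp and Orm1 were not in it. Each window runs 5′ to 3′ along the gene from base -250 to base -31 before the RefSeq start site, 220 bases in all. RefSeq and GENCODE starts can differ. The Lcn2 window lies inside the GENCODE locus given above, and the Saa2 window runs past the GENCODE start of Saa2. Capitals mark matches on either strand to an NF-kB motif (GGG and CC with any 5 bases between) or a C/EBP motif (TTNNGNAA). The windows are chr7:46715707-46715926 on the minus strand for Saa3, chr7:46743011-46743230 on the minus strand for Saa1, chr7:46751583-46751802 on the plus strand for Saa2 and chr2:32387770-32387989 on the minus strand for Lcn2.
Saa3: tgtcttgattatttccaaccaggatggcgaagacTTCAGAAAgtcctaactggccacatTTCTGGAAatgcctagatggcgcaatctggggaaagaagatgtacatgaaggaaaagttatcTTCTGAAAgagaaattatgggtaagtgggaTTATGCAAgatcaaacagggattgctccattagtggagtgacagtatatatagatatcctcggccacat
Saa1: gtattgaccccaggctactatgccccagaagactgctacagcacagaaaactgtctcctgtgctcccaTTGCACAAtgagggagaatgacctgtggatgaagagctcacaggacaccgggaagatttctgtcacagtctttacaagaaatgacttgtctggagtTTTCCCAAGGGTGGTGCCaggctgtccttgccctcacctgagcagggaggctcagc
Saa2: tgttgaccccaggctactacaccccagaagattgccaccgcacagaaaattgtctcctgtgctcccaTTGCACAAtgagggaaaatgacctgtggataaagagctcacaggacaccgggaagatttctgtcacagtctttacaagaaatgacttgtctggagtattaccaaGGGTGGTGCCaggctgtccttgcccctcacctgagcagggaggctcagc
Lcn2: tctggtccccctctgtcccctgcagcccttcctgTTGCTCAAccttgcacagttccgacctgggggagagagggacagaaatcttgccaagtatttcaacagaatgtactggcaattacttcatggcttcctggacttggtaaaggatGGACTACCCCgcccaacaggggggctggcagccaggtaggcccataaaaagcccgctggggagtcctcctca
The Saa1 and Saa2 windows were identical at 208 of 221 aligned positions (94.1%), whereas Saa3 shared 49.8% with Saa1 and 50.2% with Saa2. Saa3 held 4 C/EBP matches and no NF-kB match. Saa1 and Saa2 shared an NF-kB match (GGGTGGTGCC), which in Saa1 directly followed a C/EBP match (TTTCCCAA) that Saa2 lacked. Lcn2 held 1 match to each. Of the windows not printed, Ptx3 held 1 C/EBP match (TTGTGCAA), and Itih4 held 1 NF-kB match (GGGTATGTCC) and 1 STAT match (TTCNNNGAA, here TTCCGAGAA). These letters are common: 41.2% of all 32851 promoter windows of this length held the NF-kB motif, 34.2% the C/EBP motif and 6.27% the STAT motif.

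After the study's limits on cells (200 to 5000 genes and at most 20% mitochondrial UMIs), 6200 cells were kept in TNF- synovium, 3152 in TNF+ synovium, 6998 in TNF- lung and 9174 in TNF+ lung, with 33047125 to 84398714 UMIs per library and medians of 7137 to 12492 UMIs per cell. Cell types were rebuilt by clustering without the 8 genes and named from fixed markers, so each name below means cells with that marker profile (fibroblast-like, neutrophil-like and so on). The make-up of the tissues differed between genotypes. Mesenchyme was 57.9% of TNF- and 18.3% of TNF+ synovial cells, myeloid cells went from 10% to 38.6% of the synovium and from 15.6% to 54.9% of the lung, and lung endothelium from 32.5% to 4.40%. Pairs of libraries shared at most 0.304% of their barcodes. The human transgene cannot be read on a mouse reference. Mouse Tnf was at 16.8 CPM (UMIs per 1e6 UMIs of the cells in question) in TNF- and 75.1 CPM in TNF+ synovium. In lung it was at 35.2 and 113 CPM.

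In whole synovium, Saa3 was at 63 UMIs (0.827 CPM) in TNF- and 16117 UMIs (488 CPM) in TNF+ mice, a 590-fold difference (log2 ratio 9.20, 8.85 to 9.59). Hp was at 828 UMIs (10.9 CPM) and 22181 UMIs (671 CPM), with a log2 ratio of 5.95. Orm1 was at 14 and 459 UMIs, with a log2 ratio of 6.24 (5.48 to 7.12). Lcn2 was at 855 UMIs (11.2 CPM) and 4251 UMIs (129 CPM), with a log2 ratio of 3.52. The pattern was not shared by all 8 genes. Ptx3 was lower in TNF+ synovium, at 7150 UMIs (93.8 CPM) and 1122 UMIs (34.0 CPM), with a log2 ratio of -1.47 (-1.56 to -1.38), or -0.67 with every barcode included. Saa1 was at 2.60 and 1.36 CPM (log2 ratio -0.93, -1.43 to -0.46). Saa2 (18 and 10 UMIs) and Itih4 (75 and 37 UMIs) had intervals of the ratio that spanned 0. A gene was counted as higher or lower where its CPM differed at least 2-fold, among genes with at least 20 UMIs over both libraries. All 8 genes passed that minimum here, 4 of them higher, against 11.8% of all genes tested, and 1 lower, against 21.9%.

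In whole lung the ratios of Saa3, Hp, Lcn2 and Orm1 were smaller than in synovium. Hp went from 5433 UMIs (101 CPM) in TNF- to 60285 UMIs (714 CPM) in TNF+ mice, 7.07-fold (log2 ratio 2.82). Saa3 was at 428 and 1996 UMIs (7.96 and 23.6 CPM, log2 ratio 1.57, 1.42 to 1.73, or 0.82 with every barcode included), and Orm1 at 3 and 81 UMIs, which gave a log2 ratio of 4.10 with a wide interval of 2.51 to 6.41. Itih4 (506 and 1488 UMIs, log2 ratio 0.91) and Lcn2 (3789 and 9306 UMIs, log2 ratio 0.65) stayed under 2-fold. Ptx3 was scarce and lower, at 76 and 24 UMIs (log2 ratio -2.31, -3.04 to -1.63), but the ratio turned to 1.58 when the cells with the highest doublet scores were left out. Saa1 was at 9 and 2 UMIs, under the minimum, and Saa2 was not detected, which allows 3 UMIs per library. Of the 6 genes tested, 3 were higher, against 5.79% of all genes, and 1 was lower, against 25.5%. In these whole-tissue values, fewer cells of a type and less RNA per cell cannot be told apart, so each gene is taken apart by lineage below.

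**Figure D1:**
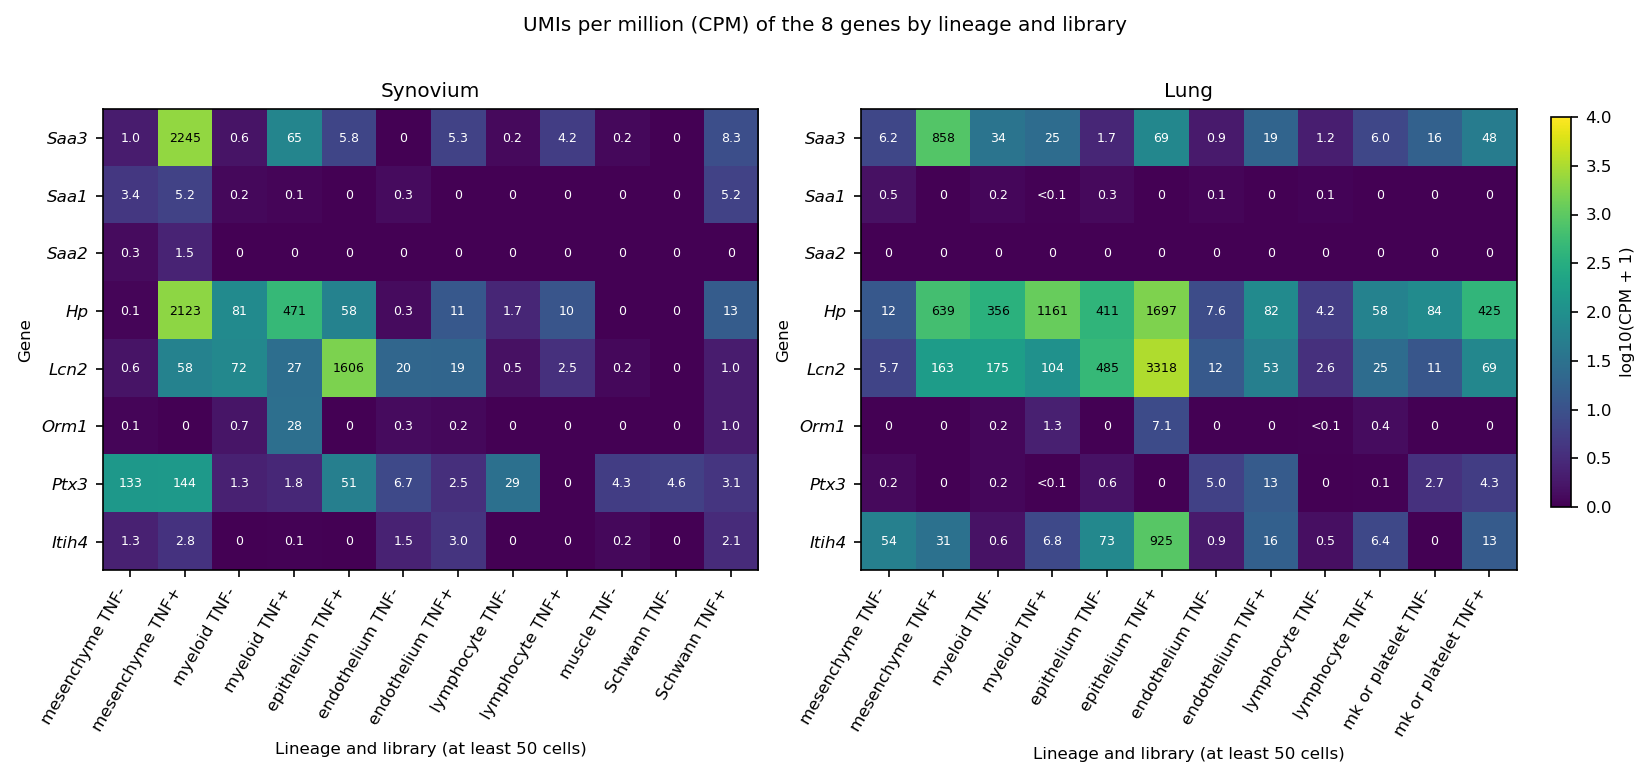
Levels of the 8 genes by cell lineage in the 4 libraries, as a heat map of CPM coloured on a log scale. The CPM is printed in each field, and lineages with at least 50 cells in the library are shown. The highest TNF+ synovial values of Saa3 and Hp are those of mesenchyme (2245 and 2123 CPM), and the highest Lcn2 and Itih4 values of the TNF+ lung are those of epithelium (3318 and 925 CPM).

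**Figure D2:**
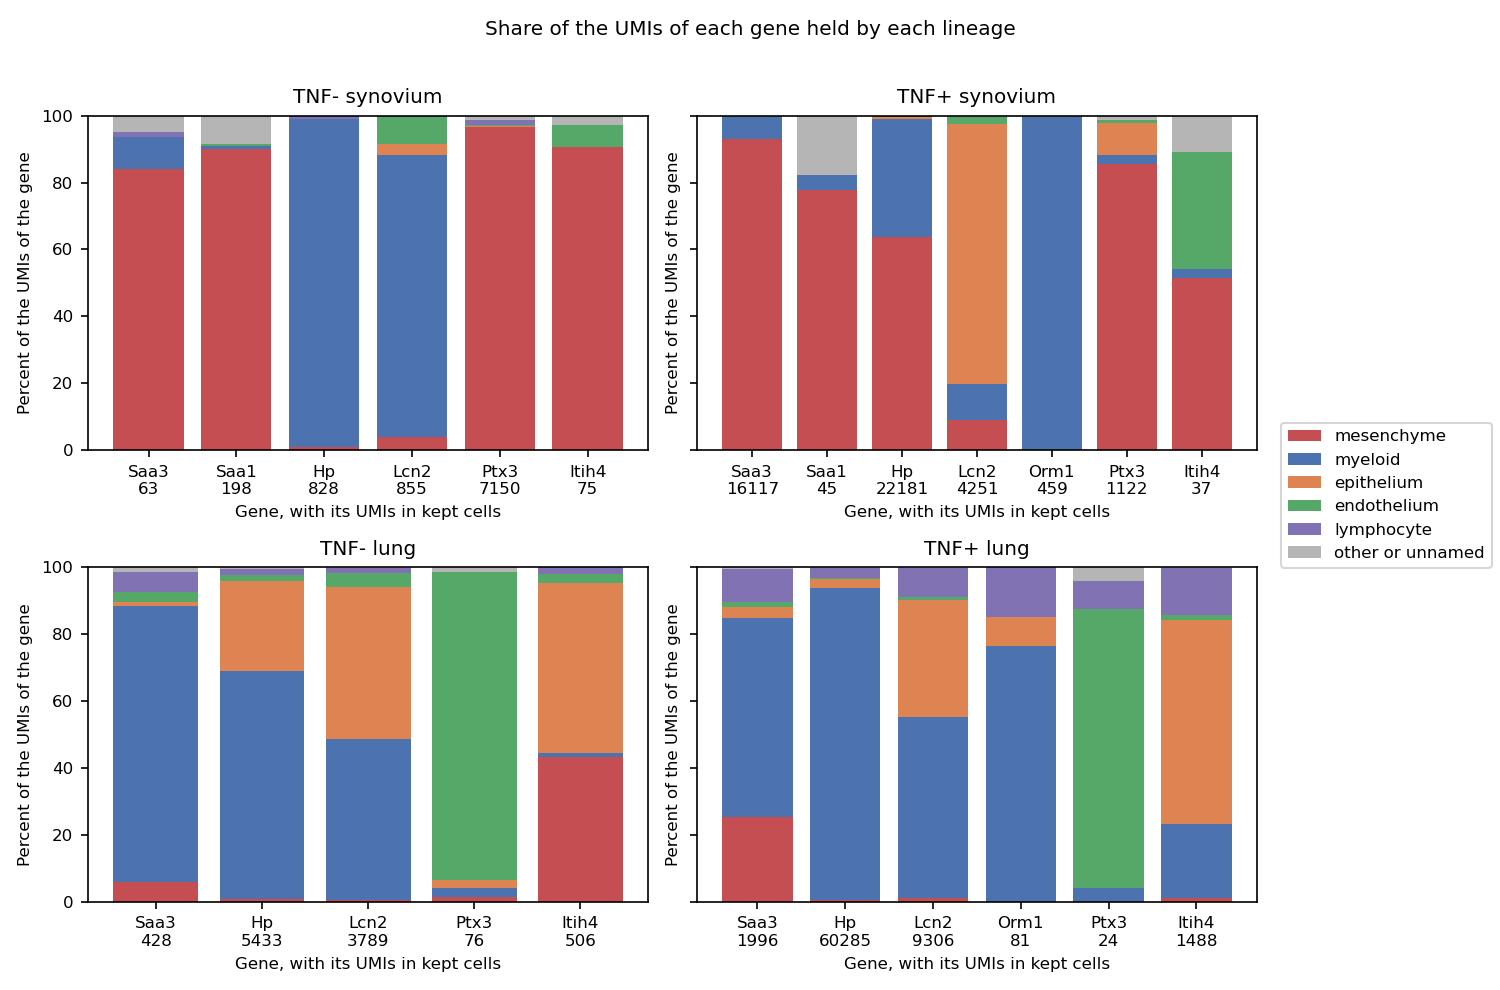
Share of the UMIs of each gene held by each lineage, in percent, for genes with at least 20 UMIs in the library, with the UMIs behind each bar. In TNF+ synovium mesenchyme holds 93.0% of Saa3 and epithelium 78.0% of Lcn2, while in TNF+ lung myeloid cells hold 93.1% of Hp.

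Saa3 in the synovium was a gene of mesenchyme. The 3592 mesenchymal cells of TNF- synovium held 53 Saa3 UMIs (1.02 CPM), and 42 of the 63 UMIs of that library came from 1 cell. The 576 mesenchymal cells of TNF+ synovium held 14982 UMIs (2245 CPM), 93.0% of the library's Saa3 (92.6% to 93.3%), and the log2 ratio within mesenchyme was 11.10 (10.71 to 11.52). A Saa3 UMI was found in 22.7% of the TNF+ mesenchymal cells, or in 14.7% (11.8% to 17.9%) once every cell was thinned to 1000 UMIs to equalise depth, against 0.0561% of TNF- mesenchymal cells thinned the same way.

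Hp was held by different lineages in the 2 genotypes. In TNF- synovium 812 of 828 Hp UMIs (98.1%) were in myeloid cells and 7 in mesenchyme. In TNF+ synovium mesenchyme held 14165 UMIs (2123 CPM, 63.9% of the library's Hp, 63.2% to 64.5%), for a log2 ratio within mesenchyme of 13.94 (12.90 to 15.25), and myeloid cells held 7806 UMIs. The Hp ratio in mesenchyme rests on the 7 TNF- UMIs. With all barcodes included, those were 26 UMIs against 29209 and the log2 ratio was 12.27.

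Most of these UMIs lay in 1 cluster of fibroblast-like cells, with 3 cells from TNF- and 226 from TNF+ synovium. Its leading genes were Mmp13 and Mmp3, which encode collagenase 3 and stromelysin 1, the neutrophil chemokine Cxcl5, and Tnn and Cthrc1, which encode secreted proteins of the matrix. The cells in this cluster held 14922 Saa3 UMIs (4019 CPM, 92.6% of the TNF+ library) and 14051 Hp UMIs (3784 CPM, 63.3%). Because over 90% of the cluster came from 1 library, it may mark that library as well as a cell state. The Saa3 and Hp ratios within mesenchyme thus set mainly this TNF+ cluster against other TNF- cells. In a fibroblast-like cluster led by Chad and Kera (363 TNF- and 78 TNF+ cells), Saa3 had a log2 ratio of 2.34 (1.71 to 2.97). It was at 43 and 46 UMIs there, 42 of the 43 in 1 cell. In a mural-like cluster Hp was at 0 UMIs in 235 TNF- and 96 UMIs in 39 TNF+ cells.

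**Figure D3:**
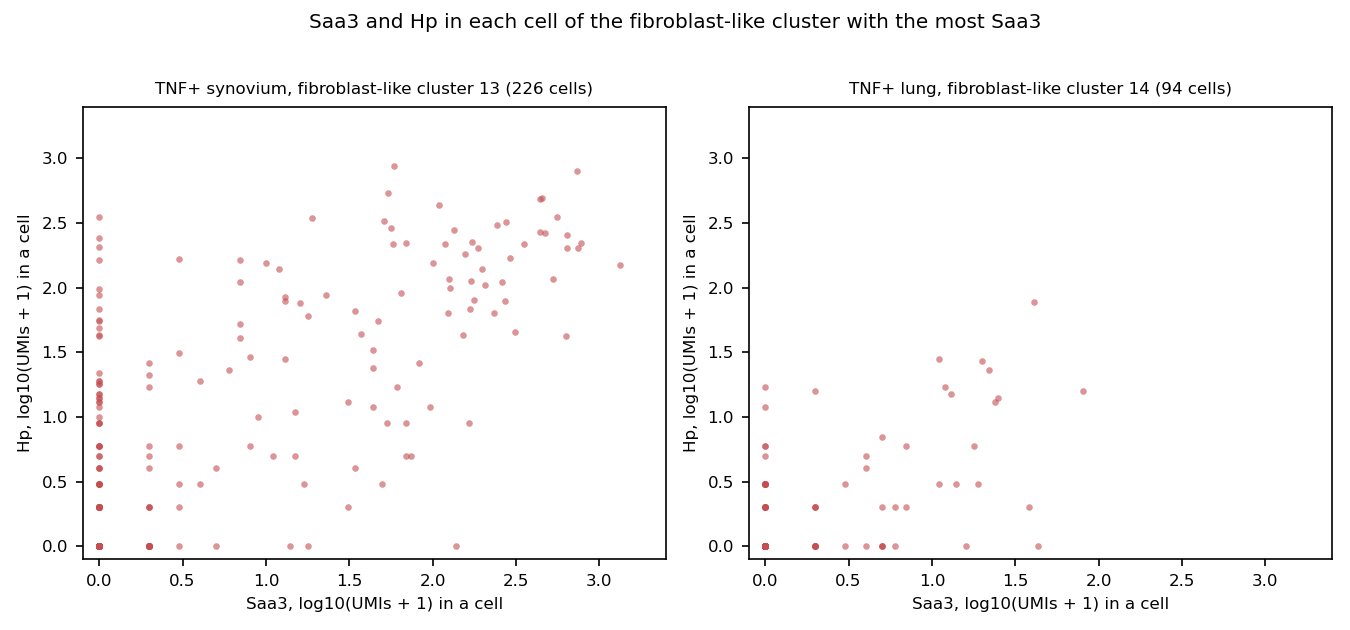
Saa3 against Hp UMIs per cell, on log axes of UMIs plus 1, in the synovial fibroblast-like cluster with 226 TNF+ cells and in the lung fibroblast-like cluster with 94 TNF+ cells. Both genes are found together in 100 synovial and 26 lung cells, and 54 synovial and 34 lung cells hold neither.

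Even inside that cluster the genes were unevenly spread. Saa3 was found in 116 of the 226 cells (51.3%) and Hp in 156 (69.0%). Both were found in 100 cells, Saa3 alone in 16, Hp alone in 56 and neither in 54. The Spearman rho was 0.61 across the 226 cells, on counts divided by the UMIs of each cell, a depth that both genes share. The median cell held 1 Saa3 UMI and the richest held 1334. Just 13 cells, with 438 to 1334 Saa3 UMIs each, held 50% of all Saa3 in TNF+ synovium, and 40 cells held 50% of its Hp. In those 13 cells Saa3 took a median of 2.67% and up to 6.87% of the UMIs of the cell. All 13 had Hp and the type I collagen gene Col1a1, 12 had Pdpn and 10 had Pdgfra, both fibroblast markers. Of the leading genes of the cluster, Mmp13 was found in 6 of the 13 and Mmp3 in 8. The pan-leukocyte gene Ptprc was found in 1, and none had the epithelial gene Epcam.

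The 2 neighbours of Saa3 were barely present in the same cells. Saa1 was at 21 UMIs and Saa2 at 10 UMIs in the 226 cells, beside 14922 UMIs of Saa3. Saa1 had another home: in TNF- synovium 163 of its 198 UMIs (8.21 CPM) lay in 61 of the 1316 cells of a fibroblast-like cluster led by Grm8, Cxcl14 and Smoc2, of which TNF+ synovium had 52 cells and no Saa1 UMI. The bound of that log2 ratio was -0.06, with an upper limit of 0.25, so the 52 cells were too few to show a difference. Within mesenchyme as a whole Saa1 was at 178 UMIs (3.44 CPM) in TNF- and 35 UMIs (5.25 CPM) in TNF+ cells (log2 ratio 0.61, 0.04 to 1.14), the opposite sign to whole tissue, where mesenchyme was rarer in TNF+ mice. The 35 TNF+ UMIs came from few cells, 14 of them from 1 cell. Saa2 was at 15 and 10 mesenchymal UMIs (log2 ratio 2.37, 1.06 to 3.62), and all 10 TNF+ UMIs lay in the cluster rich in Saa3. Since the copies are nearly identical, these counts say more about Saa1 and Saa2 together than about either.

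Synovial cells named as macrophages or monocytes carried Hp in both genotypes. This type held 568 Hp UMIs in 226 TNF- cells and 7665 in 1114 TNF+ cells, a log2 ratio of 1.37 (1.24 to 1.49), lower than the 2.54 of all myeloid cells. Thinned to equal depth, Hp was detected in 28.5% (25.9% to 31.2%) of TNF+ and in 7.94% of TNF- cells of the myeloid lineage, and the share depended on the depth used. That lineage included 367 TNF- and 80 TNF+ dendritic cells, with 5 and 8 Hp UMIs, so its shares and its ratio also reflect make-up. The TNF- macrophage and monocyte UMIs lay in monocyte-like clusters, 383 in a cluster with Chil3 and Ly6c2 and 185 in a cluster led by Cd300e and Treml4. The largest TNF+ macrophage cluster (721 cells, led by Spp1, Clec4n and Trem2) held 5441 Hp UMIs (507 CPM). A cluster led by C1q genes held 1008 Hp UMIs (356 CPM) in 179 TNF+ cells and none in 77 TNF- cells. Neutrophils, which store haptoglobin in granules, were at 1080 CPM (27 TNF- cells) and 1198 CPM (23 TNF+ cells), log2 ratio 0.15 (-0.17 to 0.46).

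Orm1 in the synovium lay in macrophages of TNF+ mice. Of the 459 UMIs in TNF+ synovium, 457 (99.6%) were in myeloid cells. Macrophages and monocytes held 0 UMIs in TNF- and 457 in TNF+ synovium. Only 77 cells of that library had an Orm1 UMI and 9 of them held 50%. The Spp1 and Trem2 cluster had 247 UMIs in 43 cells (23.0 CPM), and the C1q cluster had 209 UMIs in 31 cells (73.7 CPM).

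Saa3 was also present in TNF+ synovial macrophages, at a much lower level than in mesenchyme. Myeloid cells held 6 UMIs (0.599 CPM) in TNF- and 1072 UMIs (64.6 CPM) in TNF+ synovium, a log2 ratio of 6.75 (5.63 to 8.20). The C1q cluster contributed 582 of them, 337 in 1 cell, and the Spp1 and Trem2 cluster 404 in 109 cells, at most 35 per cell. TNF+ synovial B cells, which should lack both genes, held 3 Hp UMIs (13.9 CPM, 2.86 to 40.5) and 2 Saa3 UMIs (9.24 CPM, 1.12 to 33.4) in 36 cells. TNF+ synovial endothelium held 23 Saa3 and 50 Hp UMIs (5.25 and 11.4 CPM), which at this depth was not distinguishable from those values.

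Lcn2 in the synovium lay mainly in neutrophils of TNF- and in epithelium of TNF+ mice. In TNF- synovium 720 of 855 Lcn2 UMIs lay in the 27 neutrophils (3253 CPM), and 542 of them (63.4% of the library) in 1 cell, which also had 1736 Camp, 1136 Ngp and 402 Ltf UMIs, granule genes of immature neutrophils. The 23 TNF+ neutrophils were at 3224 CPM (log2 ratio -0.01, -0.20 to 0.17), with 164 of 358 UMIs in the richest cell. Without the richest cell of each library, the 2 values were 931 and 1946 CPM (log2 ratio 1.06, 0.76 to 1.36). In TNF+ synovium 3316 of 4251 Lcn2 UMIs (78.0%, 76.7% to 79.2%) lay in 180 epithelial cells, of which TNF- synovium had 3. Of these, 144 formed a cluster led by Cldn4, Krt18 and Wfdc18 (1734 CPM, in 35.4% of the cells) and 36 a cluster led by the basal keratins Krt14 and Krt5 (969 CPM, in 97.2% of the cells). Synovium has no such epithelium of its own, and where these cells came from was not tested. Without those cells, Lcn2 of the TNF+ synovium was mostly in myeloid cells (448 UMIs) and mesenchyme (386 UMIs, 57.8 CPM, against 33 UMIs and 0.637 CPM in TNF- mesenchyme, log2 ratio 6.50, 5.99 to 7.06).

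The myeloid Lcn2 ratio of -1.41 in the synovium rests on that 1 TNF- cell: without the richest cell of each library it was -0.07. Macrophages and monocytes alone were at 2 and 87 UMIs, a log2 ratio of 3.05 (1.16 to 6.12). In TNF+ synovium they held 0.0781 Lcn2 UMIs per cell (median 13674.5 UMIs). Dendritic cells held 0.0375 (median 15236 UMIs) and T cells 0.0204 (median 6190 UMIs), from 3 UMIs each. The part of free RNA in this ratio was not tested. Synovial endothelium held 69 and 83 UMIs (log2 ratio -0.08, -0.56 to 0.40), of which 67 in TNF- and 25 in TNF+ mice came from an endothelial cluster with the lymphatic genes Lyve1 and Flt4 (620 and 111 CPM, log2 ratio -2.49).

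Ptx3 behaved differently from the rest. It was a mesenchymal gene in both genotypes, with 6900 of 7150 UMIs (96.5%) in TNF- and 961 of 1122 (85.7%) in TNF+ mesenchyme, and its level there hardly differed, at 133 and 144 CPM (log2 ratio 0.11, 0.01 to 0.21). The whole-tissue log2 ratio of -1.47 was thus not seen within mesenchyme, whose share of cells was smaller in TNF+ synovium. Which fibroblasts carried it did differ. In TNF- synovium Ptx3 lay in clusters led by Gdf10, C4b and Meox1 (2271 UMIs, 169 CPM), by Pi16 (2015 UMIs, 199 CPM) and by Mrgprg and Krtdap (1700 UMIs, 774 CPM, in 67.6% of 136 cells). In TNF+ synovium 649 of 1122 UMIs (57.8%) lay in the Saa3-rich cluster (175 CPM). Within the Pi16 cluster the 610 TNF- cells were at 199 CPM and the 16 TNF+ cells at 1049 CPM, with 144 UMIs in 5 cells, and within the cluster led by tendon genes (Chad, Kera, Fmod and Tnmd) the log2 ratio was -2.39 (-3.21 to -1.67). TNF- lymphocytes held 119 Ptx3 UMIs and TNF+ lymphocytes none, but 55 of the 119 came from 1 B cell.

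Itih4 was scarce in the synovium, with at most 2 UMIs in any cell. Its mesenchymal log2 ratio of 1.12 (0.30 to 1.87) came from 68 and 19 UMIs. Fibroblasts alone gave -0.19 (-1.70 to 1.01) and mural cells, which wrap vessels, 1.69 (0.35 to 3.10), and without its richest cluster the mesenchymal ratio was -0.30.

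Hp in the lung lay mainly in myeloid cells. They held 3708 UMIs (356 CPM) in TNF- and 56115 UMIs (1161 CPM) in TNF+ lung, 68.2% and 93.1% of all Hp, with a log2 ratio of 1.71 (1.66 to 1.75). That ratio fell just under 2-fold with each cell weighted equally and without its richest cluster. In TNF- lung neutrophils held 2328 of the 5433 Hp UMIs, epithelium 1452 and macrophages and monocytes 1365, whereas in TNF+ lung macrophages and monocytes held 53414 of 60285. The log2 ratio in macrophages and monocytes alone was 2.69 (2.62 to 2.77). A monocyte-like cluster led by Cd300e and Treml4 went from 297 to 2737 cells, from 137 to 1407 CPM and from 46.8% to 97.3% of cells with an Hp UMI, and it held 66.0% of all TNF+ lung Hp. A cluster led by F13a1 and Ccr2 was at 508 and 1711 CPM. Neutrophils started high and differed little, at 1555 and 1994 CPM (log2 ratio 0.36, 0.28 to 0.44), while the macrophage cluster with C1q genes was at 7 UMIs in TNF- and 545 UMIs (142 CPM) in TNF+ lung.

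Cell types that should lack Hp and Lcn2 also held UMIs of both in the TNF+ lung, and their values serve as the background for the other lineages. The part of free RNA in them was not tested. T cells (median 9236 UMIs) held 0.593 Hp UMIs per cell in TNF+ and 0.0349 in TNF- lung (median 9264 UMIs). TNF+ B cells held 0.590, dendritic cells 0.589 and natural killer cells 0.459. The Lcn2 UMIs per cell of the same 4 types were 0.254 to 0.275, with 1.77 to 2.33 Hp UMIs for each Lcn2 UMI. Macrophages and monocytes (median 9065 UMIs) held 12.2 Hp UMIs per cell, far over that level, but 0.305 Lcn2 UMIs per cell, close to it, so their Lcn2 log2 ratio of 2.47 is not read as expression. The same was true of Itih4 in lung myeloid cells, at 0.0649 UMIs per cell beside 0.065 in lymphocytes, although its log2 ratio was 3.55. In the lung the log2 ratios of lymphocytes for Hp (3.78), Lcn2 (3.28), Itih4 (3.77) and Saa3 (2.36) are read as background for this reason. Platelets held 0.731 Hp UMIs per cell at a median of 764 UMIs, and 6.12 Hp UMIs for each Lcn2 UMI. After thinning, 53.0% of TNF+ lung myeloid cells and 4.25% of lymphocytes had an Hp UMI.

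Lung epithelium carried Lcn2, Itih4 and Hp, and all were higher in TNF+ mice. Lcn2 was at 1716 UMIs (485 CPM) in 356 TNF- cells and 3255 UMIs (3318 CPM) in 158 TNF+ cells, a log2 ratio of 2.77 (2.69 to 2.86). Itih4 was at 258 UMIs (73.0 CPM) and 907 UMIs (925 CPM), a log2 ratio of 3.66 (3.46 to 3.87). Hp was at 411 and 1697 CPM (log2 ratio 2.05, 1.94 to 2.15), and Saa3 at 6 and 68 UMIs (log2 ratio 5.35, 4.16 to 6.85). TNF+ epithelial cells were shallower, with a median of 2552 against 8623 UMIs, but UMIs per cell gave the same signs (log2 ratios 2.10, 2.99, 1.37 and 4.67). All 4 genes with enough UMIs were higher, against 11.7% of all genes tested in epithelium, and none lower, against 7.11%.

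The epithelial values could be followed within a cell state. In the epithelial cluster led by the surfactant genes Sftpb and Sftpc (172 TNF- and 59 TNF+ cells), Lcn2 was at 617 and 3052 CPM, Itih4 at 92.3 and 1069 CPM and Hp at 513 and 1557 CPM. Itih4 was found in 47.7% and 74.6% of these cells. In the epithelial cluster with the airway gene Scgb1a1 (12 and 66 cells) the TNF+ cells were at 6924 CPM of Lcn2, 3567 CPM of Hp and 738 CPM of Itih4. Lung neutrophils held the other large part of Lcn2, at 1186 CPM (301 cells) and 2913 CPM (179 cells), a log2 ratio of 1.30 (1.21 to 1.38). Over all myeloid cells Lcn2 was at 175 and 104 CPM (log2 ratio -0.75), and neutrophils were 301 of 1089 TNF- and 179 of 5036 TNF+ myeloid cells.

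Saa3 and Hp were also found in lung fibroblasts, some of which held both. Lung mesenchyme held 25 Saa3 UMIs (6.16 CPM) in 568 TNF- cells and 506 UMIs (858 CPM) in 216 TNF+ cells, a log2 ratio of 7.12 (6.54 to 7.77), and Hp went from 47 to 377 UMIs (11.6 and 639 CPM, log2 ratio 5.79). Mesenchymal barcodes over 5000 genes, left out here, held 2933 Saa3 UMIs in TNF- and 3579 in TNF+ lung. With every barcode included the Saa3 ratio was much lower, as given below. Lcn2 was at 5.66 and 163 CPM (log2 ratio 4.85). Per TNF+ cell it was at 0.608 UMIs in fibroblasts and 0.240 in mural cells, beside a background of 0.254 in T cells, so the mural value was near background. TNF+ mesenchymal cells had a median of 790 UMIs against 6451 in TNF- cells in the denominator of CPM. Counted per cell, the Saa3 log2 ratio was 5.73, that of Hp 4.40 and that of Lcn2 3.46. In 1 fibroblast-like cluster (222 TNF- and 94 TNF+ cells) Saa3 was at 48.4 and 3212 CPM, in 40 of the 94 TNF+ cells. Of the 94, 26 held both Saa3 and Hp, 14 Saa3 alone, 20 Hp alone and 34 neither. The Spearman rho was 0.41, on counts divided by the UMIs of each cell. TNF+ lung T cells held 0.593 Hp UMIs per cell as background, and its part in the cells with both genes was not tested. Of the 60 cells that held 50% of all TNF+ lung Saa3, 17 were in this fibroblast-like cluster. Among the 60, Col1a1 was found in 7, Pdgfra in 4, Pdpn in 3 and Ptprc in 40. Of the 4 genes tested in lung mesenchyme 3 were higher, against 9.48% of all genes, and none lower, against 9.07%.

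Most other Saa3 UMIs of the lung lay in myeloid cells, where the sign of the ratio depended on the processing. Myeloid cells held 353 UMIs (33.9 CPM) in TNF- and 1186 UMIs (24.5 CPM) in TNF+ lung, a log2 ratio of -0.47 (-0.64 to -0.29) that turned to 1.27 with every barcode included, to 1.25 with each cell weighted equally and to 2.04 without the cells with the highest doublet scores. The TNF- value came from few cells, since 2 cells held 50% of all TNF- lung Saa3, 165 UMIs in the richer, whereas 60 cells held 50% in TNF+ lung. In the cluster with C1q genes Saa3 was at 163 CPM in 2 of 66 TNF- cells and 116 CPM in 105 of 274 TNF+ cells (38.3%). In a TNF+ cluster led by the alveolar macrophage gene Marco (866 cells, median 763 UMIs) it was at 132 CPM. Thinned to equal depth, Saa3 was detected in 0.752% (0.325% to 1.48%) of TNF- and in 2.06% (1.66% to 2.52%) of TNF+ cells of this lineage, the opposite order to the CPM.

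Itih4 in the TNF- lung had another source with few UMIs in TNF+ cells. A mural-like cluster held 189 UMIs (229 CPM) in 26 of 85 TNF- cells, and TNF+ lung had 9 cells of this cluster. The other mural-like cluster had 21 TNF- and 87 TNF+ cells, so make-up and level cannot be told apart in the mural ratio. Mural cells as a whole went from 189 to 5 UMIs (log2 ratio -3.07, -4.71 to -1.82, at medians of 7120.5 and 642 UMIs per cell), fibroblasts from 30 to 13 UMIs (log2 ratio 1.79), and mesenchyme together gave -0.82 (-1.60 to -0.13). Counted per cell, mural cells gave -5.10, fibroblasts 0.74 (-0.32 to 1.72, at medians of 5730.5 and 954.5 UMIs) and mesenchyme -2.21. Ptx3 in the lung lay in an endothelial cluster with the lymphatic genes Ccl21a and Prox1, with 68 of 76 UMIs (222 CPM) in 35 TNF- cells and 20 of 24 in 4 TNF+ cells. Its endothelial log2 ratio of 1.40 (0.60 to 2.13) therefore rests on 4 cells, 2 of which had the gene, and it was -0.82 with every barcode included. Orm1 was spread thinly over the TNF+ lung, with 62 of 81 UMIs in myeloid cells.

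**Figure D4:**
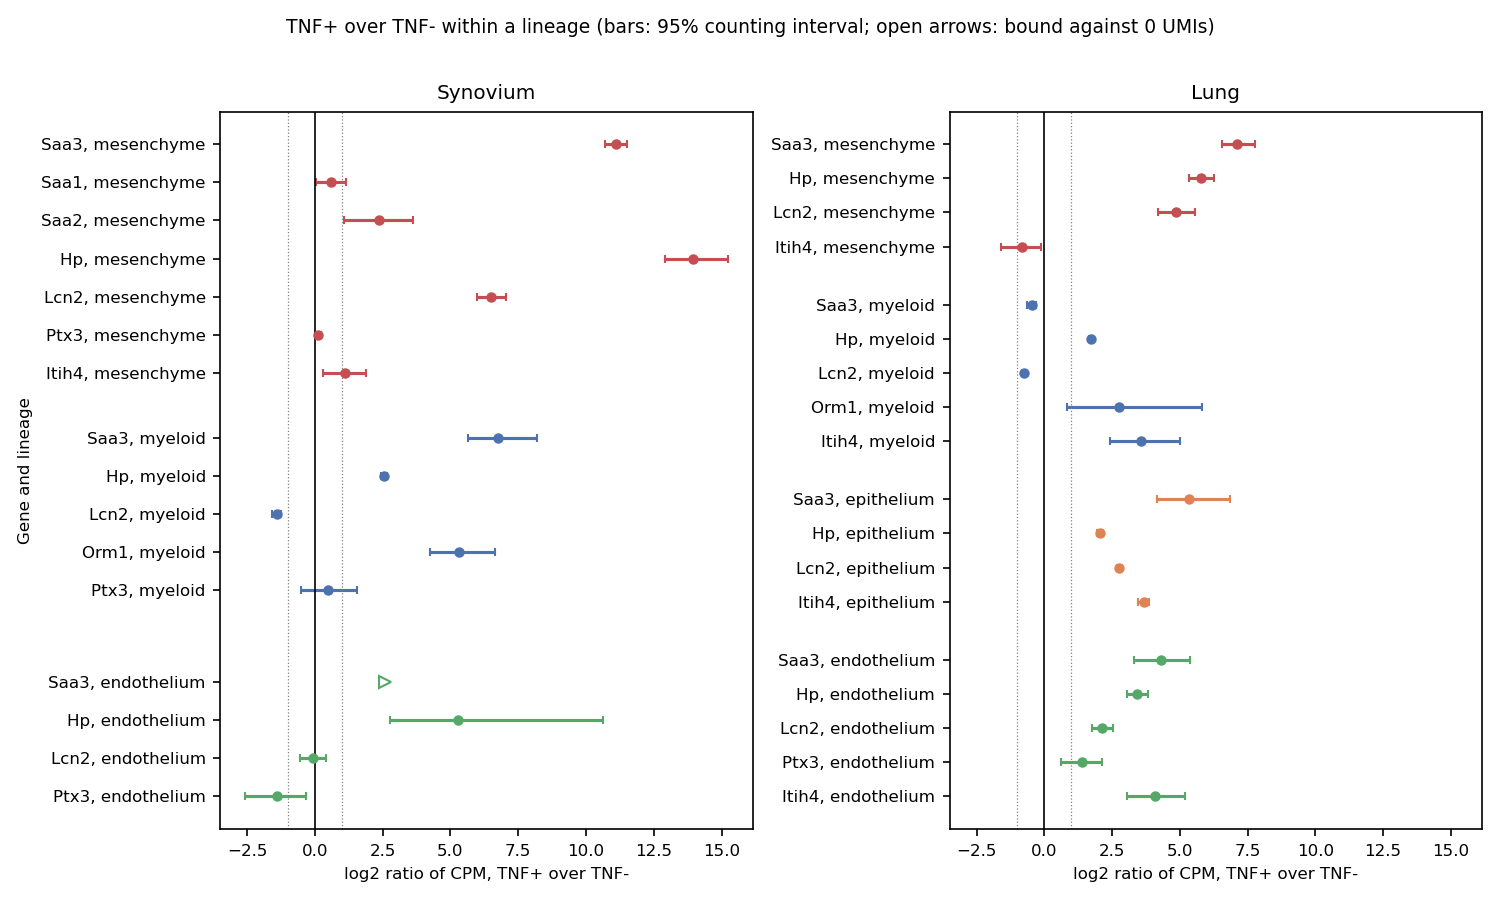
Log2 ratio of CPM, TNF+ over TNF-, within mesenchyme, myeloid cells, endothelium and lung epithelium, for genes with at least 20 UMIs over both libraries. Bars are 95% counting intervals, and a bound stands where a library had 0 UMIs. Saa3 and Hp in synovial mesenchyme lie farthest from 0, at 11.10 and 13.94, and Ptx3 in the same cells lies at 0.11.

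Within lineages of the synovium, 5 of the 7 genes tested in mesenchyme were higher (all genes 9.37%) and none lower (21.6%), and 3 of 5 in myeloid cells were higher (9.31%) and 1 lower (19.8%). In synovial endothelium 2 of 4 were higher (7.6%) and 1 lower (10.3%), and of lymphocytes, where only Ptx3 was tested, none was higher (7.79%) and 1 lower (13.2%). The 2 higher genes in endothelium were Saa3 and Hp, whose TNF+ levels there were not distinguishable from those of synovial B cells. In lung myeloid cells 3 of 5 were higher (3.99%) and none lower (16.8%). The 3 included Itih4, which was at background, and Hp, which fell just under 2-fold under some other processing. All genes that could be tested were higher and none lower in lung endothelium (5 of 5, against 10.1% higher and 8.82% lower of all genes), lymphocytes (4 of 4, against 6.2% and 10.1%) and platelets (2 of 2, against 14.7% and 7.86%), lineages in which values were near the background or TNF+ cells were shallow. Genes short of the minimum were not counted. As the genes were chosen with these results known, the counts describe them and no more.

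**Figure D5:**
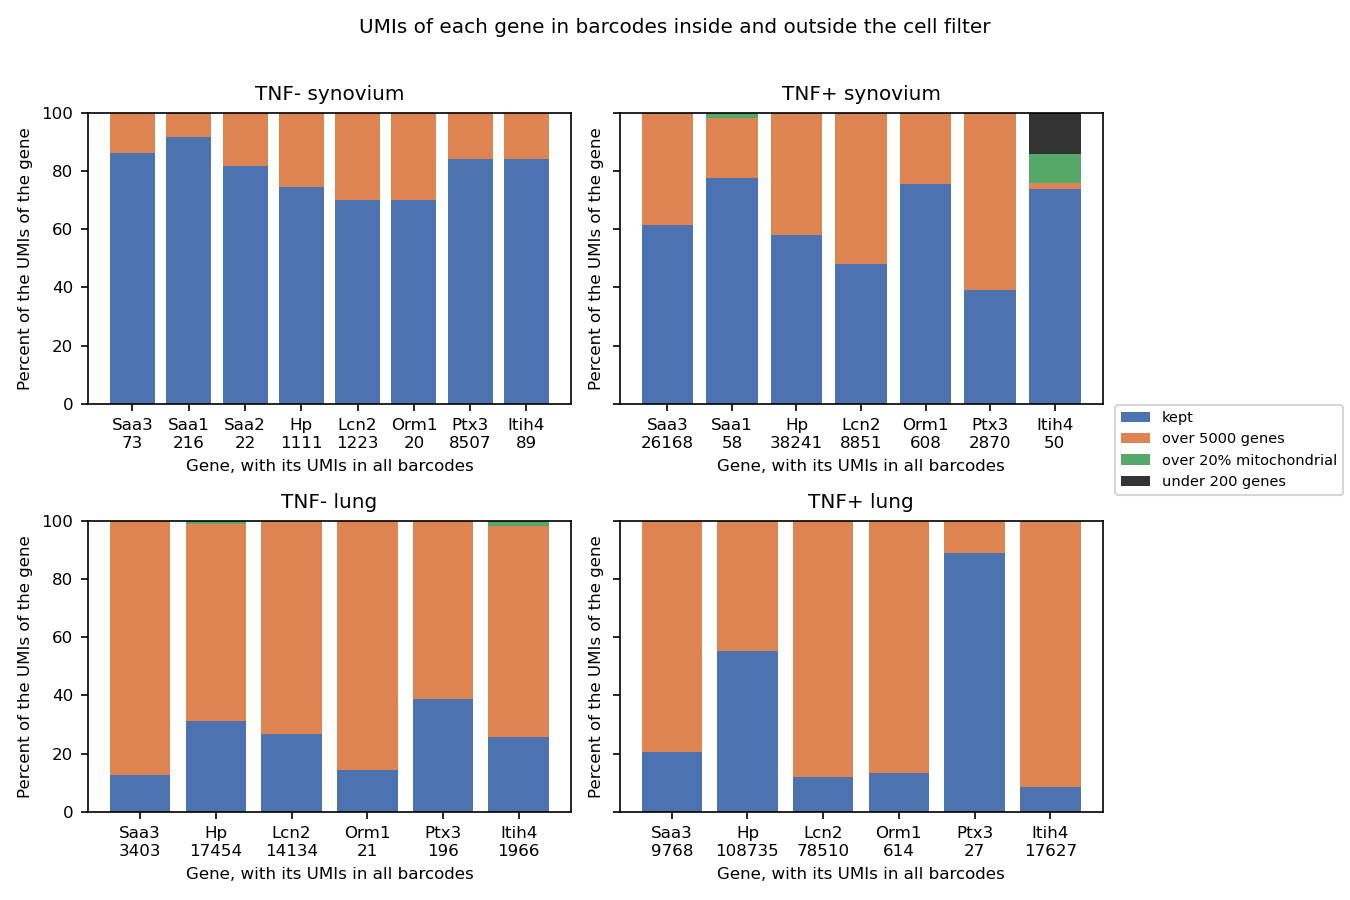
Share of the UMIs of each gene, in percent, that lay in kept cells, in barcodes with over 5000 genes and in other barcodes outside the limits, for the 4 libraries. In TNF+ lung 88.0% of Lcn2 and 91.3% of Itih4 UMIs lie in barcodes with over 5000 genes.

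A large part of these transcripts lay outside the limit of 5000 genes per cell. In TNF+ lung, 1909 barcodes over that limit held 69070 of 78510 Lcn2 UMIs (88.0%), 16097 of 17627 Itih4 UMIs (91.3%), 533 of 614 Orm1 UMIs (86.8%), 79.4% of Saa3 and 44.4% of Hp. In TNF- lung, 1298 such barcodes held 2974 of 3403 Saa3 UMIs (87.4%), 72.8% of Lcn2, 72.4% of Itih4 and 68.0% of Hp. In TNF+ synovium 346 barcodes held 60.6% of Ptx3, 51.8% of Lcn2, 41.7% of Hp and 38.0% of Saa3, and in TNF- synovium 420 held 7.87% to 30.1% of each gene. Large cells and doublets cannot be told apart among them. Placed by their nearest kept cells, 329 TNF- and 218 TNF+ lung barcodes over the limit were epithelial, with Lcn2 at 860 and 7988 CPM, Itih4 at 99.1 and 1845 CPM and Hp at 966 and 3641 CPM. Among 219 mesenchymal ones of the TNF- lung, 9 held 2933 Saa3 UMIs (476 CPM), so Saa3 in fibroblasts was not absent from TNF- lung. With every barcode included, the Saa3 log2 ratio of lung mesenchyme was 2.88 (2.81 to 2.95) instead of 7.12, and whole-lung Lcn2 and Itih4 passed 2-fold, with log2 ratios of 1.78 and 2.47.

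Other genes of the same pathways were read from 6 lists, which were also put together with earlier results of these data known. Of 19 other acute-phase genes tested in whole synovium, 10 were higher and 4 lower (all genes 11.8% and 21.9%), with a median log2 ratio of 1.88 beside -0.17 for all genes. The fibrinogen chains Fgg and Fgb were at 0 UMIs in TNF- and at 296 and 196 UMIs in TNF+ synovium. Serpina3f, a protease inhibitor, had a log2 ratio of 4.86, the interleukin-1 receptor antagonist Il1rn 4.18 and Serpina3c -3.08. Fetub, from the separate list of liver and negative acute-phase genes, was at -4.63. In synovial mesenchyme the Serpina3 genes went with Saa3, with log2 ratios of 6.85 for Serpina3f, 6.82 for Serpina3g, 4.37 for Serpina3i and 3.68 for Serpina3n, although reads can be split among these close copies. In the lung, 2 of 16 acute-phase genes were higher and 8 lower, Serpina3c (-5.29) and Serpina3n (-3.22) among them (all genes 5.79% and 25.5%), with a median log2 ratio of -0.94 beside -0.32 for all genes. Ceruloplasmin (Cp), which oxidises iron, stood apart in lung epithelium with a log2 ratio of 5.22.

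Among partners in iron handling and neutrophil granules, 6 of 14 were higher and 3 lower in synovium (all genes 11.8% and 21.9%), and 3 of 13 higher and 4 lower in lung (all genes 5.79% and 25.5%), so the lower genes were near the share of all genes. Heme oxygenase 1 (Hmox1), which breaks down the heme of captured haemoglobin, was at 81.3 and 2523 CPM in synovium (log2 ratio 4.96) and had a log2 ratio of 2.06 in lung. Cd163, the macrophage receptor of haptoglobin bound to haemoglobin, went the other way to its ligand, with log2 ratios of -1.54 in synovium, -1.77 in lung, and -3.43 and -3.40 in the myeloid cells of the 2 tissues. Of genes of hyaluronan matrix, 1 of 8 was higher and 3 were lower in synovium, with the synthase Has2 at -2.48 and Itih5 at -2.50, and none of 9 was higher and 5 were lower in lung. The higher count in synovium was near the 11.8% of all genes, and the lower counts stand beside 21.9% of all genes in synovium and 25.5% in lung.

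Receptors of the products were higher in 7 of 13 cases in synovium and lower in 2, and higher in 4 of 14 and lower in 6 in lung, against 11.8% higher and 21.9% lower of all genes in synovium and 5.79% and 25.5% in lung. The formyl peptide receptor Fpr2, a receptor of serum amyloid A on phagocytes, had log2 ratios of 4.03 in synovium and 3.03 in lung, and 2.40 and 1.48 in the myeloid cells. Tlr2 had 2.98 and 1.83. The lipocalin receptor gene Slc22a17 was at -0.83 in synovium, under 2-fold, and at -1.79 in lung, and Ager was at -3.82 in lung. Of 25 upstream cytokines and factors, 7 were higher and 4 lower in synovium, and 6 higher and 6 lower in lung, and the lower counts did not pass the 21.9% and 25.5% of all genes. Cebpb, a C/EBP factor, was higher in both tissues (log2 ratios 1.16 in synovium and 2.19 in lung). Il1b passed 2-fold in synovium (1.96) and not in lung (0.71), Il6 in lung (-2.08) and not in synovium (-0.45), and Cebpd in synovium (-1.73) and not in lung (-0.79). Socs3 was at -1.54 and 1.31 and Nfkbiz at -0.83 and 1.62. In synovial mesenchyme, where Saa3 and Hp were highest, the log2 ratios were 1.77 for Il1b, 1.11 for Il6, 1.26 for Cebpb, -0.60 for Cebpd, -0.15 for Nfkbiz and -1.10 for Socs3. Of 6 liver and negative acute-phase genes tested in synovium, 1 was higher and 2 were lower (all genes 11.8% and 21.9%). Of 5 in lung, none was higher and 2 were lower (all genes 5.79% and 25.5%).

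Profiles over cell types put the genes with different companions. Pearson correlations of log2(CPM + 1) were taken over 41 profiles, each a cell type with at least 50 cells in 1 library, against 16109 genes. The profiles share libraries and free RNA, so the values are a description. Saa3 was most like the complement genes Cfb (r = 0.78) and C3 (r = 0.73), with Hp between them (r = 0.74). Hp was most like Fpr2 (r = 0.79), Lcn2 (r = 0.76) and Chil1 (r = 0.75), and Lcn2 like Chil1 (r = 0.88), Lrg1 (r = 0.85) and Wfdc2 (r = 0.79). The mesenchymal pair had other companions, Omd, Fam180a and Duox1 for Saa1 (r = 0.84, 0.82 and 0.78) and Lrrn4cl, Ackr3 and Tac1 for Ptx3 (r = 0.84, 0.78 and 0.77). Orm1 was most like Npy (r = 0.65), Gm48324 (r = 0.63) and Gde1 (r = 0.59), and Itih4 like Unc5d (r = 0.79), 1010001N08Rik (r = 0.77) and Stimate (r = 0.77).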

How the data were processed

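Single cells of lung and synovium (10x Genomics, 3′ chemistry) were taken from GEO as matrices of counts. The deposited values are UMI counts for each gene and barcode, which the authors had not normalized. The submitters' processing notes name Cell Ranger 7.0.1 and mm10. The 8 genes and the lists were chosen with earlier results of these data known. The text names all 8 genes, and of the lists the genes whose interval excludes 2-fold, at most 5 in each direction, beside 10 receptors and factors named in advance, and for each gene with at least 100 UMIs its 3 nearest profiles. Serpina3h and Chi3l1 were looked for by symbol and not found.

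From the counts, cells with 200 to 5000 genes and at most 20% mitochondrial UMIs were kept. Both libraries of a tissue were clustered together (2000 variable genes without the 8 genes and the lists, 30 principal components, 20 neighbours, Leiden at 0.8) with scanpy 1.11.5, leidenalg 0.10.2 and Python 3.11.15. Libraries were not integrated. A name needed at least 5 fixed markers that were 2-fold higher than elsewhere and present in 10% of cells or more, limits set after the data were seen, so names can differ from those of the study. Clusters were unnamed where another lineage had more markers among the top 10 genes. Doublets were not removed, except as an alternative, by the highest Scrublet scores (0.8% per 1000 barcodes). CPM had exact Poisson intervals, shares exact Clopper-Pearson intervals, and ratios conditional binomial intervals (scipy 1.17.1), all at 95%. Where a library had 0 UMIs, the ratio was a bound against 3 UMIs. For shares of cells with a UMI, cells were thinned to 1000 UMIs and shallower cells left out. Counts are of 3′ ends and were not scaled by transcript length, so levels are not compared between genes beyond counts of UMIs in the same cells. With 1 library per group there was no test of the conditions. On counts simulated with Poisson error only, 95.8% of true ratios lay within their intervals in synovium (19246 genes, 200 changed) and 95.8% in lung (19478 genes). The simulation left out the clumping of UMIs in few cells, so it does not show how well the intervals cover the real ratios. Gene positions came from GENCODE vM21 and promoters from RefSeq.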

Additional observations from a re-analysis of the deposited data

Results flagged for a closer look

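For 3 genes the log2 ratio within a lineage had opposite signs in the 2 tissues, with intervals that exclude 0 in both. The difference was not tested, since each tissue had 1 library per genotype. Ptx3 in endothelium was at -1.41 in synovium and 1.40 in lung, from 23 and 11 UMIs and from 70 and 20 UMIs. Itih4 in mesenchyme was at 1.12 in synovium and -0.82 in lung, from 68 and 19 UMIs and from 219 and 18 UMIs. Saa3 in myeloid cells was at 6.75 in synovium and -0.47 in lung, from 6 and 1072 UMIs and from 353 and 1186 UMIs. Each pair of opposite signs was lost under other processing: Ptx3 of lung endothelium was -0.82 with no filter on cells, Itih4 of synovial mesenchyme -0.30 without its richest cluster, and Saa3 of lung myeloid cells 1.27 with no filter and 2.04 without the highest Scrublet scores.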

How the results depend on the processing

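No paired analysis was possible because each group had 1 library, and for the same reason no replicate could be left out. Of 53 log2 ratios examined, 41 passed 2-fold. Over 545 values recomputed under 12 settings, 34 of the 41 passed 2-fold every time, 7 did not at least once and 4 of the 41 changed sign. Ptx3 of whole lung was 1.58 and myeloid Lcn2 of synovium 0.54 without the highest Scrublet scores. Without its richest cluster, myeloid Lcn2 of synovium was 4.74 and mesenchymal Itih4 -0.30. Ptx3 of lung endothelium was -0.82 with no filter on cells. Myeloid Hp of lung was 0.98 with each cell weighted equally and 0.94 without its richest cluster. The causes were not tested.

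Of results under 2-fold, myeloid Saa3 of lung moved from -0.47 to 1.27 with no filter, 2.04 without the highest Scrublet scores, 1.25 with each cell weighted equally and -1.22 with the stricter filter. Counts of genes 2-fold lower in whole synovium moved from 1 to 0 with no filter and to 2 with the stricter filter, without the highest Scrublet scores, with each cell weighted equally and without the richest cell. Pairs of gene and lineage that were 2-fold lower in synovium went from 3 to 1 with equal weights. In whole lung, 5 in place of 3 genes were higher with equal weights, and 2 (no filter) or 0 (without the highest Scrublet scores) in place of 1 were lower. Lower pairs in lung went from 0 to 1 with no filter, without the richest cluster, by UMIs per cell and in cells with at least 1000 UMIs, and to 2 with the stricter filter. Of the leading lineages of the TNF- lung, 5 by share became 2 (no filter) or 3 (without the highest Scrublet scores), and 5 by level became 3, 1 (stricter filter) and 2. Thinned to 500 and 2000 UMIs, the share of myeloid cells with Hp was 17.4% and 39.6% in TNF+ synovium and 36.1% and 70.1% in TNF+ lung. Leaving out the richest cell (of a lineage, or of neutrophils for Lcn2), UMIs per cell and cells with at least 1000 UMIs were chosen after seeing the data.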
